A study of Mus musculus with 9 samples.

Results

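The 10 genes described here encode proteins that shorten the life of mRNAs or hold lymphocytes in a resting, non-dividing state. They were taken by gene name from a table of 55487 genes as *Zfp36*, *Zfp36l1*, *Zfp36l2*, *Zc3h12a*, *Zc3h12d*, *Rc3h1*, *Rc3h2*, *Btg1*, *Btg2* and *Tob1*, each of which was found once. The libraries came from CD4+ T cells purified by negative selection from spleens of wild-type female C57BL/6 mice with intact TRAIL receptor (Trail-r+/+), aged 6–7 weeks, and were sequenced as mRNA. A group of 3 libraries was from cells kept in medium alone, for a time that the sources used here do not give. Another 3 libraries were from cells given Abs to CD3 at 3 µg/ml and to the costimulatory receptor CD28 at 2 µg/ml for 24 h (the stimulated libraries), and the last 3 from cells given the same Abs together with TRAIL at 10 µg/ml (the TRAIL-treated libraries). TRAIL is a TNF superfamily ligand, and the design asks how the transcriptome of activated CD4+ T cells changes when its receptor is engaged.

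The ZFP36 proteins are zinc finger proteins that bind AU-rich elements, short stretches of A and U in the 3′ end of many cytokine mRNAs, and bring in the CCR4-NOT complex, which removes the poly(A) tail. Regnase-1 is an endoribonuclease that cuts stem-loops in mRNAs of inflammatory genes, and the roquins bind similar stem-loops and recruit the same deadenylase. The BTG and TOB proteins bind the catalytic subunits of CCR4-NOT, slow cell division and are known for keeping T cells quiescent.

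Summed over the 10 genes, expression was 2199 ± 209.6 TPM (SD, n = 3; TPM is each gene's length-scaled share of the transcripts in a library) in medium, 865 ± 79.4 TPM with stimulation and 3720.4 ± 121 TPM with TRAIL. These sums were 0.220%, 0.0865% and 0.372% of all TPM. The 3 ZFP36 genes, *Btg1*, *Btg2* and *Tob1* fell with stimulation and were highest with TRAIL, *Zc3h12a* rose only in the libraries with TRAIL, and *Zc3h12d* rose with stimulation and was lowest with TRAIL. The roquin genes had the smallest differences in both comparisons with TRAIL. TPM is a share of a library, and fewer cells of a type and less RNA per cell cannot be told apart in these bulk samples.

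**Figure D1:**
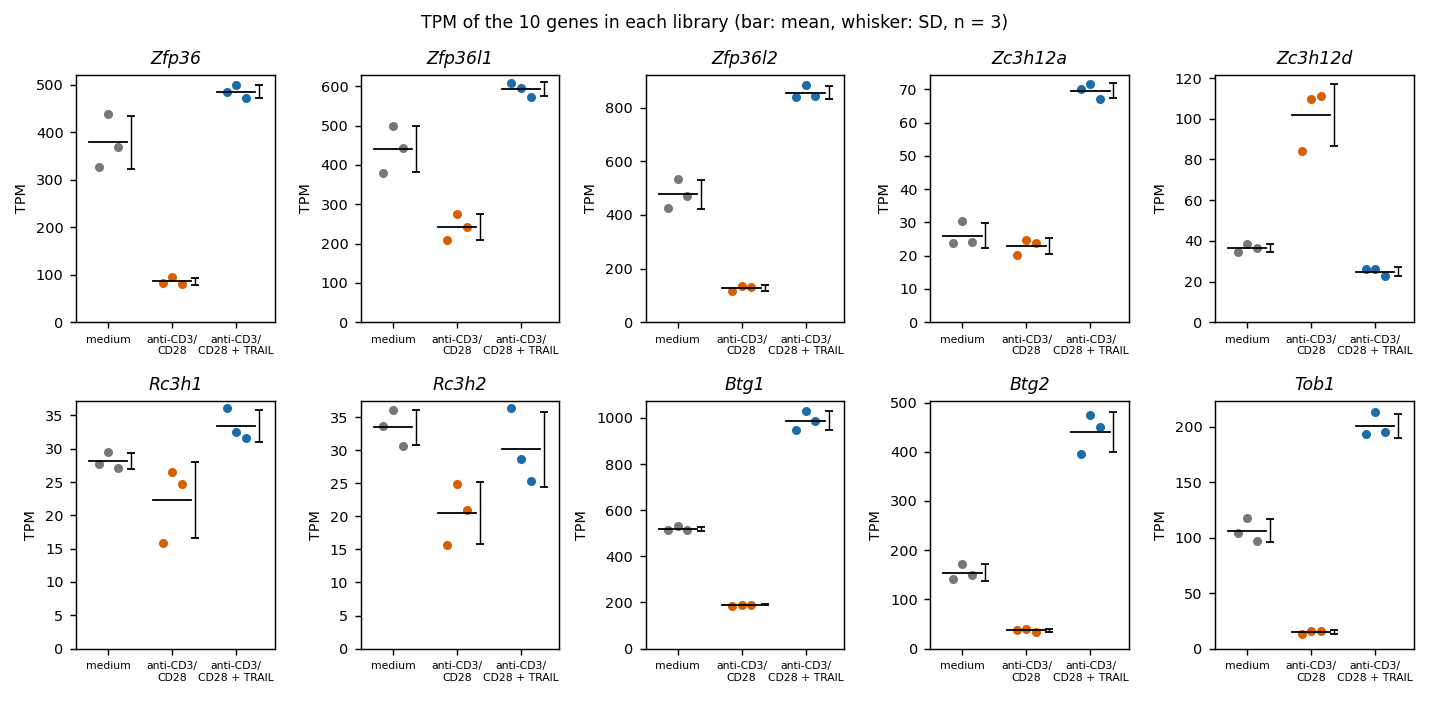
TPM (vertical axes, linear from 0) of each of the 10 genes in the 9 libraries, in panels by gene; points are libraries, bars are group means and whiskers are SD (n = 3). Libraries with TRAIL lie above both other groups for the 3 *Zfp36* family genes, *Zc3h12a*, *Rc3h1*, *Btg1*, *Btg2* and *Tob1*, and below both for *Zc3h12d*.

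Differences were tested with limma on log2(TPM + 1), fitted on all 9 libraries and on the 15536 genes that reached 1 TPM in 3 or more libraries, and p-values were adjusted by the Benjamini-Hochberg method over all of these genes. A gene is said to have risen or fallen where its adjusted p was under 0.05, and it is called where the log2 fold change was also at least 1 in size. The labels do not say that libraries came from separate animals or cultures, and the p-values measure only the spread between these libraries. The 3 comparisons share libraries and are not independent of each other.

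The ZFP36 genes fell with stimulation and were highest with TRAIL. *Zfp36* (ENSMUSG00000044786, minus strand of chromosome 7 at 28376784–28380253 in GRCm38) encodes tristetraprolin, the founding member of the family. Its level was 327, 439 and 369 TPM in medium, 83.0, 95.1 and 80.9 TPM with stimulation, and 484, 500.1 and 472 TPM with TRAIL. The 3 groups did not overlap. Stimulation lowered it by a log2 fold change of -2.11 (SE 0.12, limma adjusted p = 1.1e-07), and it was 5.62-fold higher by the ratio of means with TRAIL than with stimulation alone (log2 fold change 2.48, SE 0.12, limma adjusted p = 4.0e-08). Against medium the difference was small (log2 fold change 0.37, SE 0.12, limma adjusted p = 0.0358). It did not pass when medium library 1 or 3 or any TRAIL-treated library was left out, with limma adjusted p from 0.0732 (without TRAIL-treated library 1) to 0.119 (without medium library 1, log2 fold change 0.27).

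*Zfp36l1* (ENSMUSG00000021127, minus strand of chromosome 12 at 80107754–80113013) and *Zfp36l2* (ENSMUSG00000045817, minus strand of chromosome 17 at 84183931–84187947) are the paralogs that act together in lymphocyte development. *Zfp36l2* stood at 426, 533 and 471 TPM in medium, 116, 136 and 130.1 TPM in the stimulated libraries and 839.6, 885 and 843 TPM with TRAIL. It fell with stimulation by 1.89 on the log2 scale (SE 0.10, limma adjusted p = 1.1e-07) and was 6.72-fold higher with TRAIL than without (log2 fold change 2.74, SE 0.10, limma adjusted p = 9.8e-09). It also rose against medium, by a log2 fold change of 0.85 (SE 0.10, limma adjusted p = 3.4e-04).

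*Zfp36l1* had the smallest response of the family to stimulation. It was measured at 381, 498 and 443 TPM in medium, 208, 275 and 243 TPM in the stimulated libraries and 608, 595 and 573 TPM with TRAIL, and no groups overlapped. The log2 fold change with stimulation was -0.86 (SE 0.13, limma adjusted p = 1.6e-04), short of the size needed for a call. With TRAIL it was 2.44-fold higher than with stimulation alone (log2 fold change 1.29, SE 0.13, limma adjusted p = 8.1e-06) and rose by 0.43 on the log2 scale against medium (SE 0.13, limma adjusted p = 0.0262). The last value did not pass when medium library 1 or 3 or any TRAIL-treated library was left out, with limma adjusted p from 0.0589 (without TRAIL-treated library 3) to 0.0903 (without medium library 1, log2 fold change 0.33).

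Each of the 3 ZFP36 genes has in its own 3′ UTR the nonamer TTATTTATT (UUAUUUAUU in the mRNA), the core of the AU-rich element that these proteins bind. The sites are shown because they place the family among the mRNAs that its own proteins could bind, with those of 4 target mRNAs whose levels are given further on. Each is a 30-base stretch, written 5′ to 3′ as DNA of the coding strand from the GENCODE transcripts on GRCm38, with the nonamers in capitals.

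Zfp36 (chr7:28376950-28376979, minus strand): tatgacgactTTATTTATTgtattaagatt
Zfp36l1 (chr12:80108166-80108195, minus strand): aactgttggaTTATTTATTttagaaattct
Zfp36l2 (chr17:84184913-84184942, minus strand): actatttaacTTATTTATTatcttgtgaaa
Tnf (chr17:35199676-35199705, minus strand): atttaTTATTTATTTATTATTTATTTATTt
Csf2 (chr11:54247322-54247351, minus strand): atatTTATTTATTTATTTATTTATTtttgc
Il2 (chr3:37120897-37120926, minus strand): ttatctgaaaTTATTTATTatattgaattg
Rel (chr11:23737833-23737862, minus strand): ctcccagactTTATTTATTttttttagctt

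*Zfp36*, *Zfp36l1*, *Zfp36l2* and both roquin genes hold the nonamer once, 5 of the 10 members, whereas 7.92% of 11691 tested genes with a 3′ UTR in the annotation hold it. The 3′ UTRs of *Tnf* and *Csf2* hold it 5 and 4 times, with overlapping copies run together in the capitals. A longer UTR has more places for it: the 3′ UTRs of the members with a nonamer run from 774 bases in *Zfp36* to 7181 bases in *Rc3h1*, against a median of 1097 bases for tested genes. A match describes these letters and shows no binding.

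The regnase genes moved in opposite directions with TRAIL. *Zc3h12a* (ENSMUSG00000042677, minus strand of chromosome 4 at 125118423–125127840) encodes Regnase-1, which the protease MALT1 cleaves after T cell receptor signaling. Its level was 23.7, 30.3 and 24.2 TPM in medium, 20.1, 24.7 and 23.8 TPM in the stimulated libraries and 70.2, 71.6 and 67.2 TPM with TRAIL. The medium and stimulated libraries overlapped (log2 fold change -0.18, SE 0.12, limma adjusted p = 0.212), while every TRAIL-treated library was above them. The ratio of means with TRAIL was 3.04 against stimulation alone (log2 fold change 1.57, SE 0.12, limma adjusted p = 1.3e-06) and 2.67 against medium (log2 fold change 1.39, SE 0.12, limma adjusted p = 3.5e-05).

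*Zc3h12d* (ENSMUSG00000039981, plus strand of chromosome 10 at 7832470–7870396) encodes Regnase-4, another protein of this family. It was the only member of the 10 that rose with stimulation, from 34.5, 38.3 and 36.7 TPM in medium to 84.3, 109.7 and 111 TPM (log2 fold change 1.45, SE 0.12, limma adjusted p = 2.8e-06). With TRAIL it stood at 26.2, 26.0 and 22.6 TPM, below every other library. The mean with TRAIL was 4.08-fold lower than with stimulation alone (log2 fold change -1.98, SE 0.12, limma adjusted p = 2.9e-07) and the log2 fold change against medium was -0.53 (SE 0.12, limma adjusted p = 0.00949).

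*Zc3h12a* made up 41.6% ± 2.35 (SD, n = 3) of the summed TPM of the pair in medium, 18.4% ± 0.84 in the stimulated libraries and 73.7% ± 1.07 with TRAIL. These shares are ratios within a library and do not depend on how libraries are scaled. They can still depend on the mix of cells in a library, and the part of that mix was not tested. No groups overlapped, and the two-sided exact permutation test gave p = 0.1 for each comparison, the smallest that 3 against 3 libraries allow. The summed TPM of the pair was 62.6 ± 5.43 in medium, 125 ± 17.6 with stimulation and 94.6 ± 4.22 with TRAIL (SD, n = 3).

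The roquin genes had the smallest log2 fold changes of the 10 in both comparisons with TRAIL, while with stimulation that of *Zc3h12a* was smaller. *Rc3h1* (ENSMUSG00000040423, plus strand of chromosome 1 at 160906418–160974978) encodes Roquin-1, a mutation of which gives mice an excess of follicular helper T cells. It was measured at 27.7, 29.6 and 27.2 TPM in medium, 15.8, 26.5 and 24.7 TPM in the stimulated libraries and 36.2, 32.5 and 31.7 TPM with TRAIL. The groups did not overlap, but stimulated library 1 lay far below the other two, and the difference with stimulation did not pass (log2 fold change -0.35, SE 0.17, limma adjusted p = 0.0849). Without stimulated library 2 it passed, at a log2 fold change of -0.49 and a limma adjusted p of 0.0299. With TRAIL it rose against stimulation alone by a log2 fold change of 0.59 (SE 0.17, limma adjusted p = 0.00969), which became 0.37 without stimulated library 1 (limma adjusted p = 0.00718). The value against medium was 0.24 (SE 0.17, limma adjusted p = 0.301), and it passed under median-of-ratios scaling (0.42, limma adjusted p = 0.0375) and quantile normalization (0.42, limma adjusted p = 0.0295).

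*Rc3h2* (ENSMUSG00000075376, minus strand of chromosome 2 at 37370069–37422903) encodes the close relative Roquin-2. It was at 33.6, 36.1 and 30.7 TPM in medium, 15.7, 25.0 and 21.0 TPM in the stimulated libraries, and 36.5, 28.7 and 25.3 TPM with TRAIL, where the range ran across that of medium. It fell with stimulation by 0.70 on the log2 scale (SE 0.18, limma adjusted p = 0.00523). The rise with TRAIL over stimulation alone was 0.54 (SE 0.18, limma adjusted p = 0.0200) and rested on single libraries: it was 0.37 without stimulated library 1 (limma adjusted p = 0.0563) and 0.40 without TRAIL-treated library 1 (limma adjusted p = 0.0815). Against medium the log2 fold change was -0.16 (SE 0.18, limma adjusted p = 0.522).

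*Tob1* and *Btg2* had the largest differences among the members with TRAIL against stimulation alone. *Btg2* (ENSMUSG00000020423, minus strand of chromosome 1 at 134075170–134079120), an antiproliferative gene first known as a p53 target, was at 140.5, 173 and 150.4 TPM in medium and 38.4, 39.5 and 33.0 TPM with stimulation. It reached 396, 476 and 449.8 TPM with TRAIL, and the groups were far apart. The mean with TRAIL was 11.9-fold that with stimulation alone (log2 fold change 3.54, SE 0.12, limma adjusted p = 3.8e-09) and 2.85-fold that in medium (log2 fold change 1.51, SE 0.12, limma adjusted p = 1.6e-05). With stimulation it fell by 2.03 on the log2 scale (SE 0.12, limma adjusted p = 1.3e-07).

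*Tob1* (ENSMUSG00000037573, plus strand of chromosome 11 at 94211454–94215495) is a gene of resting T cells whose product also binds the poly(A)-binding protein. It stood at 105, 117 and 97.0 TPM in medium, 12.7, 15.8 and 16.2 TPM with stimulation and 193, 213 and 195 TPM with TRAIL. It had the deepest fall of the 10 with stimulation, with a mean 7.12-fold lower (log2 fold change -2.75, SE 0.12, limma adjusted p = 1.5e-08), and the largest rise with TRAIL over stimulation alone, 13.4-fold by the ratio of means (log2 fold change 3.67, SE 0.12, limma adjusted p = 3.1e-09). Ordered by that log2 fold change, it was number 114 of 15536 genes and *Btg2* number 133. Against medium the log2 fold change was 0.91 (SE 0.12, limma adjusted p = 3.9e-04).

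*Btg1* (ENSMUSG00000036478, plus strand of chromosome 10 at 96617006–96622809), a paralog of *Btg2* that is abundant in quiescent lymphocytes, was the most abundant member in medium and with TRAIL. It was at 513, 531 and 513 TPM in medium, 187, 191 and 190.4 TPM with stimulation and 948, 1032 and 986 TPM with TRAIL, with no overlap between groups. It fell with stimulation by 1.45 on the log2 scale (SE 0.08, limma adjusted p = 8.7e-08). With TRAIL the mean was 5.22-fold that of stimulation alone (log2 fold change 2.38, SE 0.08, limma adjusted p = 4.0e-09) and the log2 fold change against medium was 0.93 (SE 0.08, limma adjusted p = 2.9e-05).

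Counted over the 10 members, 8 changed with stimulation, 1 up and 7 down, where 28.8% of all tested genes rose and 40% fell. Of these 6 were called, 1 up and 5 down, where 12.4% of tested genes were called up and 19.5% down. Libraries did not overlap for 1 member that was higher and 8 that were lower, against 29.9% and 42.6% of tested genes. The median log2 fold change was -1.15 for the members and -0.15 for all genes.

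With TRAIL against stimulation alone all 10 changed, 9 up and 1 down, where 33.5% of tested genes rose and 33.5% fell. Of these 8 were called, 7 up and 1 down, where 16.6% were called up and 14.3% down. Libraries did not overlap for any member, 9 higher and 1 lower, against 35.5% and 34.9% of tested genes. The median log2 fold change was 1.97 for the members and 0.01 for all genes. Against medium 8 members changed with TRAIL, 7 up and 1 down, where 8.03% of tested genes rose and 24.6% fell. Of these *Btg2* and *Zc3h12a* were called up and none down, where 2.49% of tested genes were called up and 2.13% down. Libraries did not overlap for 8 members that were higher and 1 that was lower, against 12.4% and 38.2%. The median was 0.64 for the members and -0.18 for all genes.

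**Figure D2:**
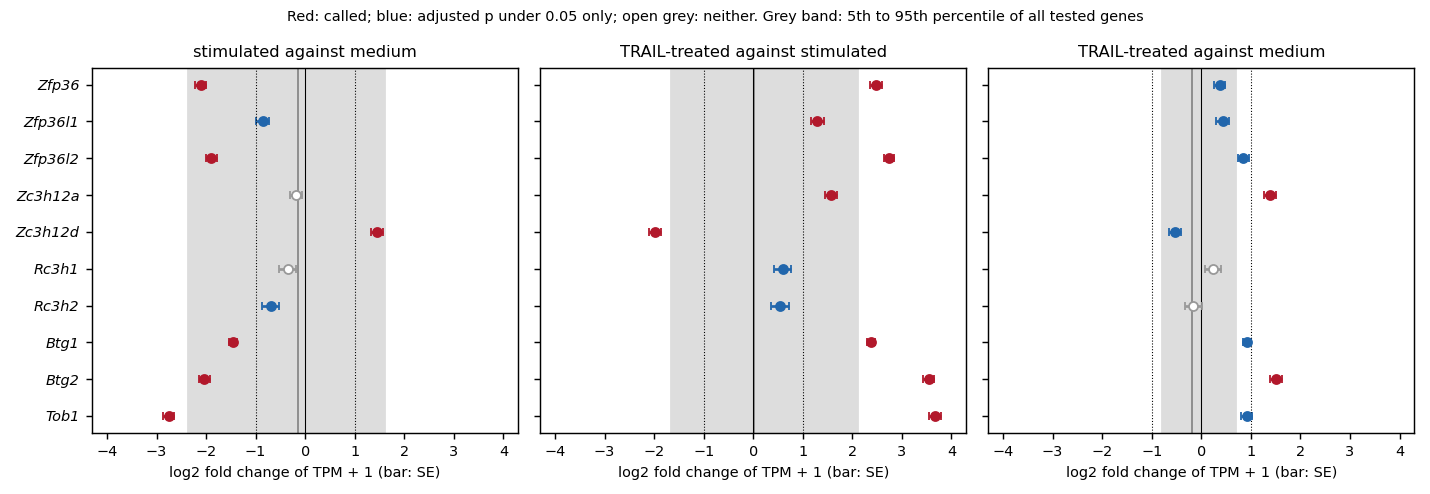
Log2 fold change (horizontal axes, on log2(TPM + 1)) of the 10 genes in the 3 comparisons, 1 panel each; whiskers are SE, red marks genes called, blue those with an adjusted p under 0.05 only, open grey neither, and the grey band runs from the 5th to the 95th percentile of 15536 genes. In the panel of TRAIL against stimulation alone, *Tob1*, *Btg2*, *Zfp36l2*, *Zfp36* and *Btg1* lie above the band, and *Zc3h12d* lies below its lower edge at -1.65.

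With TRAIL, 7 members were above both medium and stimulated libraries by adjusted p (*Zfp36*, *Zfp36l1*, *Zfp36l2*, *Zc3h12a*, *Btg1*, *Btg2* and *Tob1*) and *Zc3h12d* was below both, where 4.4% of tested genes were above and 10.3% below. With the fold threshold in both comparisons, *Btg2* and *Zc3h12a* remained, where 1.35% of tested genes were above both and 0.174% below both. Scaling the libraries by the median of ratios in place of TPM made this 5 members, adding *Zfp36l2*, *Btg1* and *Tob1*, whose log2 fold changes against medium were then 1.04, 1.12 and 1.10. That scaling moved the median of all genes in this comparison by 0.17.

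The order of the members by level differed between groups. In medium the order was *Btg1*, *Zfp36l2*, *Zfp36l1* and *Zfp36*, whose ranges overlapped from each to the next, then *Btg2* and *Tob1*, then *Zc3h12d*, *Rc3h2*, *Rc3h1* and *Zc3h12a*, of which *Zc3h12d* overlapped *Rc3h2* and *Rc3h1* overlapped *Zc3h12a*. In the stimulated libraries *Zfp36l1* was highest and *Zc3h12d* came after *Btg1* and *Zfp36l2*, overlapping *Zfp36*. At the bottom were *Zc3h12a*, *Rc3h1*, *Rc3h2* and *Tob1*, whose ranges overlapped only from each to the next in part of the order, and those of *Zc3h12a* and *Tob1* did not overlap. With TRAIL *Btg1*, *Zfp36l2*, *Zfp36l1* and then *Zfp36* led, and *Zfp36* overlapped *Btg2*. *Tob1* and *Zc3h12a* followed, and *Rc3h1*, *Rc3h2* and *Zc3h12d* came last with ranges that overlapped from each to the next.

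**Figure D3:**
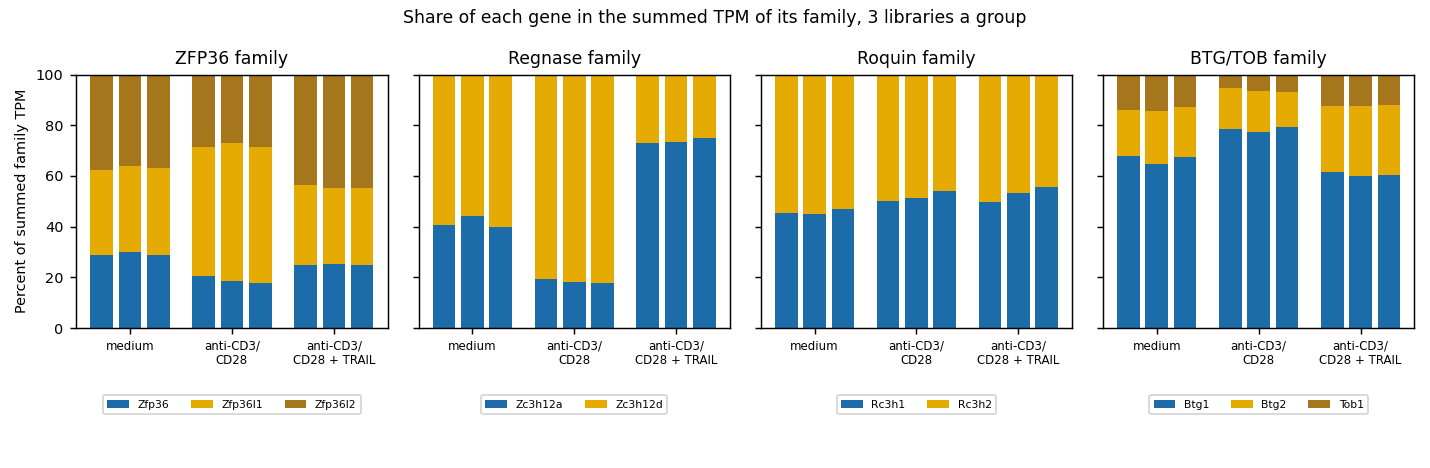
Share of each member in the summed TPM of the members of its family (vertical axis, percent, from 0 to 100), stacked for each of the 9 libraries, in 1 panel per family. Other genes of the families, *Tob2* and *Btg3* among them, are not counted. In the regnase panel *Zc3h12a* takes 41.6% on average in medium, 18.4% with stimulation and 73.7% with TRAIL.

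Within the ZFP36 family the make-up shifted as well as the total. The summed TPM of the 3 genes was 1295 ± 169 in medium, 456 ± 49.7 with stimulation and 1933 ± 46.1 with TRAIL (SD, n = 3). *Zfp36l1* held 34.0% of it in medium, 53.0% ± 1.67 with stimulation and 30.6% with TRAIL, while *Zfp36l2* held 36.8% in medium and 44.3% ± 0.70 with TRAIL. In the BTG and TOB family the sums of *Btg1*, *Btg2* and *Tob1* were 779.5 ± 35.6, 241 ± 4.50 and 1629 ± 92.0 TPM, in the same order. *Tob2* and *Btg3* of this family were not counted. They were at 45.1 and 33.5 TPM on average with stimulation and 223 and 46.0 TPM with TRAIL. The shares below hold for the 3 genes summed and not for the whole family. *Btg1* held 66.6% ± 1.69 in medium, 78.5% ± 0.96 with stimulation and 60.7% ± 0.88 with TRAIL, and *Tob1* held 13.6%, 6.18% and 12.3%. All of these shares were without overlap in each comparison, with a two-sided exact permutation p of 0.1, the smallest possible. Between the roquins the share of *Rc3h1* was 45.7% in medium, 51.9% with stimulation and 52.8% with TRAIL. Medium lay below both other groups without overlap (two-sided exact permutation p = 0.1 for each). Stimulation and TRAIL overlapped (two-sided exact permutation p = 0.8).

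Letters of 5 motifs for factors of activation and quiescence were looked for on both strands in the 250 bases before the start of each gene, from RefSeq on GRCm38.p6, in which 9 of the 10 members were matched and *Zfp36l2* was not. The cAMP response element (TGACGTCA) was in *Btg2*. The AP-1 site, searched as TGANTCA with any middle base, was in *Zfp36l1* (as TGATTCA) and *Rc3h1* (as TGACTCA). The EGR site (GCGNGGGCG) was in *Btg2* and *Zfp36*, the FOXO site (GTAAACA) in *Btg1*, and the CArG box of serum response factor in *Zfp36*. Of 32851 promoters of the same length the 5 motifs, in this order, were held by 1.55%, 6.75%, 4.7%, 3.17% and 1.47%. The other 4 matched members, *Tob1* and *Zc3h12a* among them, held none of these letters in this window. The stretches around the matches in the most responsive member with any, *Btg2*, and in *Btg1* and *Zfp36* are shown with the motif in capitals, so that the promoters of members that moved together can be set side by side.

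Btg2, cAMP response element (chr1:134079303-134079332, minus strand): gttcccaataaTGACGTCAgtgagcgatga
Btg2, EGR site (chr1:134079267-134079296, minus strand): cgcctgggagGCGCGGGCGagctggcgggc
Btg1, FOXO site (chr10:96616786-96616815, plus strand): gggggtttattTGTTTACaagcagattacg
Zfp36, EGR site (chr7:28379314-28379343, minus strand): gagctacgccGCGGGGGCGcgtcccggaag
Zfp36, CArG box (chr7:28379267-28379296, minus strand): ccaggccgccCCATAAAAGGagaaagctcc

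No motif was shared by all members that rose with TRAIL, and a match is a description of the letters, not a bound site. In the GENCODE annotation both *Zfp36* stretches lie in an exon of a longer *Zfp36* transcript.

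Among 6 other genes of the same families, *Tob2* was called up with TRAIL against both other groups. It was at 59.1 ± 10.3 TPM in medium, 45.1 ± 4.14 with stimulation and 223 ± 13.8 with TRAIL (SD, n = 3), a log2 fold change of 2.28 against stimulation alone (SE 0.13, limma adjusted p = 1.4e-07) and 1.91 against medium (SE 0.13, limma adjusted p = 6.1e-06). With stimulation it fell by 0.37 on the log2 scale (SE 0.13, limma adjusted p = 0.0250), short of a call. *Zc3h12c*, a low-level regnase gene at 3.33, 0.876 and 3.32 TPM on average, was the other gene called up with TRAIL against stimulation alone (log2 fold change 1.21). *Btg3*, named after its values were seen, was at 16.0, 33.5 and 46.0 TPM on average and was called up with TRAIL against medium (log2 fold change 1.47). *Zc3h12b* was at about 1 TPM, and *Zfp36l3* and *Btg4* were under the level needed for testing.

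Of 13 genes of the CCR4-NOT and PAN complexes, 2 were called up and 1 down with TRAIL against stimulation alone, near the 16.6% and 14.3% of all tested genes, with a median log2 fold change of 0.01, as over all genes. Against medium limma called none of them, with 1 passing by adjusted p (*Cnot9*, log2 fold change -0.33) and 4 lower at an unadjusted p under 0.05, as were 5173 of all 15536 tested genes. *Cnot9*, a subunit that binds RNA-binding proteins, fell from 60.9 ± 2.74 to 23.0 ± 2.56 TPM (log2 fold change -1.38, limma adjusted p = 1.7e-06), and the catalytic subunit *Cnot6l* and the adaptor *Pan3* rose (log2 fold changes 1.10 and 1.05). *Cnot2*, the most abundant, was at 164, 124 and 154 TPM on average in medium, with stimulation and with TRAIL.

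Of 18 genes for decapping and exonucleases, limma called none up and 8 down with TRAIL against stimulation alone, 3 were higher at an unadjusted p under 0.05 and 11 lower, and the median log2 fold change was -0.66. Over all 15536 tested genes 16.6% were called up and 14.3% down there, 5449 were higher and 5417 lower at an unadjusted p under 0.05, and the median was 0.01. The 3 largest were subunits of the RNA exosome, *Exosc4* (log2 fold change -1.67), *Exosc2* (-1.56) and *Exosc5* (-1.45). *Exosc2* was at 27.7 ± 2.55 TPM in medium, 75.3 ± 3.74 with stimulation and 24.8 ± 0.42 with TRAIL (SD, n = 3). Between TRAIL and medium its log2 fold change was -0.15 (limma adjusted p = 0.254). Those of *Exosc4* and *Exosc5* were -0.68 and -0.58 (limma adjusted p = 0.00680 and 0.00855). Of the list 4 fell and none rose against medium, where 24.6% of all tested genes fell and 8.03% rose. The median there was -0.32, and -0.18 over all genes. *Ddx6*, the decapping helicase with the highest level in this list, rose with TRAIL against stimulation alone by 0.67 on the log2 scale, from 171 ± 37.9 to 268 ± 18.3 TPM.

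Among 10 regulators and partners of the members, 2 were called up and 2 down with TRAIL against stimulation alone, where 16.6% and 14.3% of all tested genes were. *Mapkapk2*, the kinase that phosphorylates and restrains tristetraprolin, ran opposite to *Zfp36*: it was at 56.5 ± 5.84, 171 ± 4.49 and 54.1 ± 2.85 TPM (log2 fold change -1.64, limma adjusted p = 1.8e-07). The methyltransferase gene *Prmt1* fell by 1.29 on the log2 scale. The poly(A)-binding protein gene *Pabpc1* had the highest level here, 1389 TPM on average in medium, 2295 with stimulation and 1619 with TRAIL.

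Of the 16 mRNAs listed as known targets of the members, most rose with stimulation and fell with TRAIL against stimulation alone. With stimulation 13 rose and 3 fell, with a median log2 fold change of 2.35, where 28.8% of all tested genes rose, 40% fell and the median was -0.15. With TRAIL against stimulation alone 3 were called up and 8 down, with a median of -1.34, where 16.6% and 14.3% of all tested genes were called. The largest falls on the log2(TPM + 1) scale were those of *Il2ra*, the high-affinity IL-2 receptor chain, from 868 ± 126 to 23.2 ± 2.25 TPM (log2 fold change -5.16), of *Csf2*, the cytokine GM-CSF, from 27.2 ± 3.56 to 0.473 ± 0.225 TPM (-4.26), and of *Tnfrsf4*, the costimulatory receptor OX40, from 1074 ± 46.9 to 85.4 ± 2.21 TPM (-3.64). By the ratio of means *Csf2* was 57.6-fold lower, *Il2ra* 37.5-fold and *Tnfrsf4* 12.6-fold, and *Il2*, named because its site is shown, was 30.9-fold lower, from 15.3 ± 7.20 to 0.494 ± 0.197 TPM (log2 fold change -3.36, limma adjusted p = 1.8e-06). *Tnfrsf4* had the highest mean level in the list.

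The list was not uniform. The 3 called up with TRAIL, named after their values were seen, were *Nfkbid*, from 60.3 ± 4.71 to 309 ± 2.94 TPM (log2 fold change 2.34, limma adjusted p = 2.9e-08), *Nfkbiz*, from 35.3 ± 5.05 to 182 ± 0.28 TPM (2.34, limma adjusted p = 5.1e-08), and *Rel*, from 36.4 ± 7.27 to 110.5 ± 2.28 TPM (1.60, limma adjusted p = 2.7e-06). *Rel* encodes an NF-κB subunit, *Nfkbid* and *Nfkbiz* encode nuclear IκB proteins, and the same 3 genes were those that fell with stimulation. *Tnf*, with its 5 nonamers, was at 20.2 ± 3.53, 38.8 ± 6.66 and 43.3 ± 4.02 TPM, and did not pass between TRAIL and stimulation alone (log2 fold change 0.16, limma adjusted p = 0.390). Against medium 12 of the 16 rose with TRAIL and 10 were called, with a median of 1.09, where 8.03% of all tested genes rose, 2.49% were called up and the median was -0.18.

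**Figure D4:**
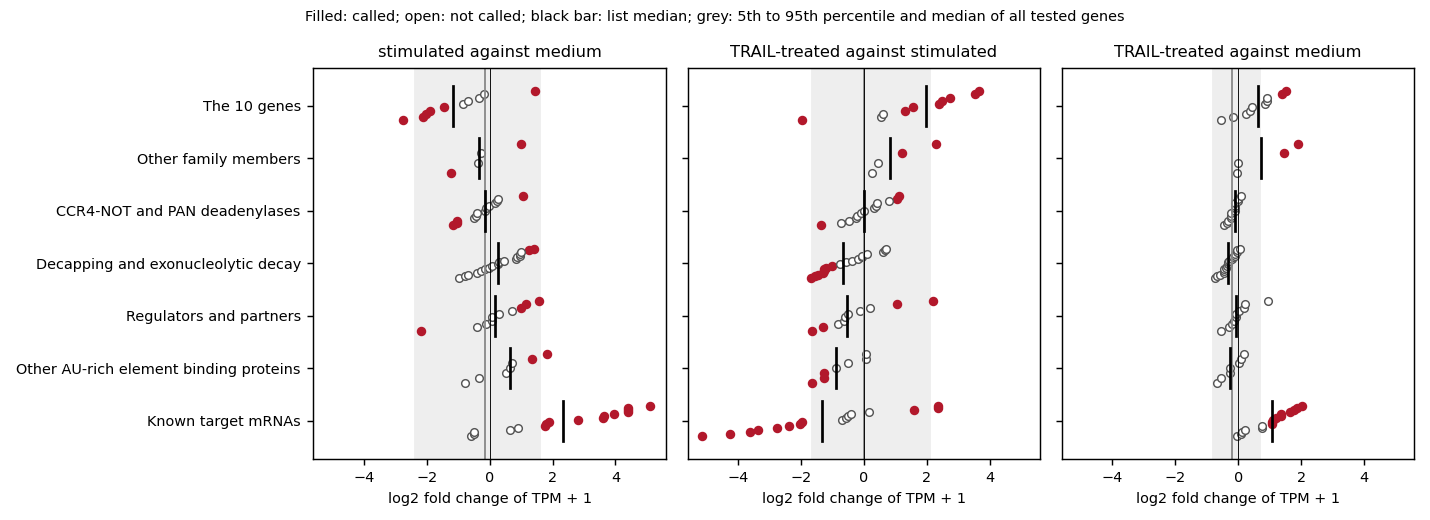
Log2 fold change (on log2(TPM + 1)) of every tested gene of the members and of the pathway lists, 1 point per gene, in the 3 comparisons; filled points are called and black bars are medians. With TRAIL against stimulation alone the median is 1.97 for the members, 0.01 for the deadenylases, -0.66 for decapping and exonucleases and -1.34 for the target mRNAs.

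Of 7 other proteins that bind AU-rich elements, limma called none up and 3 down with TRAIL against stimulation alone, 5 were lower and none higher at an unadjusted p under 0.05, and the median log2 fold change was -0.90, where 16.6% of all tested genes were called up, 14.3% down and the median was 0.01. *Ybx1*, the most abundant, was at 435 ± 48.3 TPM in medium, 1553 ± 105 with stimulation and 491 ± 28.7 with TRAIL (log2 fold change -1.66, limma adjusted p = 3.6e-07). *Khsrp* and *Hnrnpd*, which both promote decay, each fell by 1.26 on the log2 scale.

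The genes whose pattern over the 9 libraries was most like each member were found by the root mean square distance of centred log2(TPM + 1) among the 10456 genes whose mean reached 10 TPM in some group. The 2 nearest were *Coq8a* and *Rell1* for *Zfp36*, *Etv3* and *Ifnar1* for *Zfp36l1*, *Rasl11b* and *Cd40lg* for *Zfp36l2*, *Jun* and *Tgif1* for *Zc3h12a*, and *Irf8* and *Nup62* for *Zc3h12d*. They were *Lrrfip1* and *Zeb1* for *Rc3h1*, *Ttc13* and *Trav7d-4* for *Rc3h2*, *Nr1d2* and *Myb* for *Btg1*, *Trim36* and *Rhob* for *Btg2*, and *Sox4* and *Klf4* for *Tob1*. Distances were at most 0.242, for *Rhob*. *Sox4* lay at 0.0559 from *Tob1*, with means of 23.9 TPM in medium and 44.8 TPM with TRAIL, and *Jun* lay at 0.0782 from *Zc3h12a*, with means of 193 TPM in medium, 153 TPM with stimulation and 502 TPM with TRAIL.

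Markers of other blood cells were lower with stimulation and higher with TRAIL than with stimulation alone, as most members were. None of them was higher with TRAIL than in medium by adjusted p. The summed level of 7 T cell markers was 2724–3044 TPM in medium, 2173–2381 with stimulation and 2496–2841 with TRAIL, so that the labelled cell type was present in every library. The sum of 6 B cell markers was 1930.3–1995, 149–164 and 802–895 TPM, that of 7 macrophage markers was 1334–1447, 29.2–34.8 and 1079–1219 TPM, and that of 4 neutrophil and monocyte markers was 598–932, 61.4–86.0 and 403–501 TPM. The 6 erythroid markers summed to 2081–2534, 24.8–39.6 and 610.4–660.4 TPM, the 4 dendritic cell markers to 47.1–52.1, 4.54–6.70 and 29.2–32.1 TPM, and the 2 NK cell markers to 58.4–74.2, 5.04–6.85 and 14.7–17.6 TPM. All 29 of these genes were called down with stimulation, where 19.5% of all tested genes were. With TRAIL against stimulation alone 27 of the 29 were called up, where 16.6% of all tested genes were.

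Among defining markers, *Xcr1* and *Alas2* were at the table's floor of 0.0001 TPM in some stimulated libraries. The 2 CD8 T cell markers summed to 110.0–118, 94.2–105 and 46.9–49.4 TPM. Against medium limma found none of these 29 markers higher with TRAIL, by adjusted p or at an unadjusted p under 0.05. By adjusted p 23 of them were lower, where 24.6% of all tested genes were. Of the members 7 were higher by adjusted p, where 8.03% of all tested genes were. The part of these cells in the members' differences was not tested in any comparison. Libraries were instead scaled to the geometric mean of the T cell markers, an alternative added after the data were seen. The same numbers of members were then called in each comparison, and the sign of the *Zc3h12a* difference with stimulation turned (log2 fold change 0.13).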

How the data were processed

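RNA-seq libraries of CD4+ T cells were made by the authors with an mRNA kit and sequenced as paired ends. Per the submitters' processing notes the tools were Trimmomatic 0.36, HISAT2 2.1.0, SAMtools 1.2, StringTie 2.1.2 and DESeq2. The authors deposited 1 table of TPM per gene, which has the same sum in each library and keeps no depth, so the counting precision is unknown. The labels name a human build, while the study's methods name GRCm38 and the coordinates of all 10 members equal those of GENCODE for GRCm38. The annotation release and the strand setting are not given in the sources used here. Antisense genes overlap *Zfp36* (at most 1.60 TPM), *Zfp36l1* and *Zfp36l2* (the last 2 partners were not analysed here), and their reads cannot be told apart without strand.

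Groups were taken from the sample labels. The 15536 of 55487 genes that reached 1 TPM in 3 or more of the 9 libraries, all 10 members among them, were tested on log2(TPM + 1) with limma 3.58.1 in R 4.3.3 (functions lmFit and eBayes, with the prior variance following the mean level). All 3 groups entered one fit without a replicate block, with Benjamini-Hochberg adjustment over all tested genes. A gene was called at an adjusted p under 0.05 and a log2 fold change of at least 1 in size. A fold change on the log2(TPM + 1) scale understates the change of low genes. DESeq2 was not used here, since TPM are not counts. The script was tested on simulated data. Shares among the members of a family were compared by two-sided exact permutation tests.

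Named were every member, and of each list its gene with the highest mean and up to 3 called genes with the largest change for TRAIL against stimulation alone, with the 2 nearest genes in pattern for each member. Some genes are not reported here by name. The members, lists and motifs were chosen with earlier results of these data known. Alternatives were other pseudocounts, filters and scalings, no fold threshold, no trend, a replicate block, only the libraries compared and leaving out each library. Within groups the correlation of log2 values between libraries was 0.983–0.993, against at most 0.970 between groups.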

Additional observations from a re-analysis of the deposited data

How the results depend on the processing

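The number of members called was 6 with stimulation, 8 with TRAIL against stimulation alone, 2 with TRAIL against medium and 2 beyond both other groups, and leaving out each of the 9 libraries in turn gave 6, 8, 2 and 2 every time. Median-of-ratios scaling raised the last 2 counts to 5 and 5, and no fold threshold raised them to 8 and 8. Directions turned in values that did not pass: *Rc3h2* against medium was 0.0074 under quantile normalization and 0.026 when scaled by the median of ratios, and *Zc3h12a* with stimulation was 0.13 under scaling to T cell markers, a setting chosen after seeing the data. Quantile normalization brought *Zfp36l1* with stimulation to -1.07, past the fold threshold. Without a filter on TPM, which adds unexpressed genes, limma adjusted p rose to 0.148 for *Zfp36*, 0.132 for *Zfp36l1* and 0.0522 for *Zc3h12d* against medium, and to 0.0727 for *Rc3h1* and 0.128 for *Rc3h2* against stimulation alone, so that these 5 did not pass. Under quantile normalization *Zfp36* and *Zfp36l1* against medium did not pass either (0.0668 and 0.0854), nor did the roquins against stimulation alone under scaling to T cell markers (0.0543 and 0.0917). The causes were not tested. Quantile normalization moved the median of all genes by 0.19 with stimulation and by 0.14 for TRAIL against medium.

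Over all genes, calls up were 38.8% of those with stimulation, 52.1% under quantile normalization and 55.8% under scaling to T cell markers. For TRAIL against stimulation alone they were 53.8%, and 39.5% under scaling to T cell markers, and for TRAIL against medium 53.9%, 74.2% under median-of-ratios scaling, 70.6% under quantile normalization, 65.1% with a pseudocount of 5, and 47.4% both with a pseudocount of 0.1 and without TRAIL-treated library 1. The calls for TRAIL against medium numbered 718, and 1167 with a pseudocount of 0.1 and 332 with 5.

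Libraries with the same number did not deviate together: correlations of deviations ran from -0.306 to 0.295, 3 of 9 pairs above 0.1, and from -0.379 to 0.289 for different numbers. With a replicate block the counts of members called were 6, 8, 2 and 2. Depth is unknown, so its limits were not assessed.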

Other observations

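The AU-rich nonamer was also counted in the 3′ UTRs of all tested genes. Among 926 genes with at least 1 nonamer, 16.7% were called up and 11.7% down with TRAIL against stimulation alone, and among all 11691 genes with a 3′ UTR 15.5% and 15.8%. Against medium, 4.43% of the genes with a nonamer were called up, and 2.00% of all. The 205 genes with at least 2 nonamers had 14.6% called up and 16.6% down with TRAIL against stimulation alone. The 3′ UTRs of genes with a nonamer had a median length of 2306 bases, against 1097 for all, so the sets differ in length, and no test was made.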
